A study of Mus musculus with 20 samples.

Results

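GATA6 regions that gained GATA6 late, were called without SOX17 and without pluripotency TF (PTF) binding, and carried enhancer marks in ES cells numbered 1484 of 42403 (3.5%). They were chosen by the authors' deposited categories: the Late cluster of GATA6 binding dynamics, the absence of SOX17 and of PTFs (OCT4, SOX2 and ESRRB), and the active, primed or poised enhancer class of the histone marks. These categories were selected on GATA6, SOX17 and PTF ChIP-seq signal and histone marks that were not used here, so the values that chose the regions are not given, and their label could be compared with accessibility only. The regions made up 10.4% of the 14243 Late regions and 39.9% of the 3722 Late regions in an enhancer class. By marks, 789 (53.2%) were poised, 555 (37.4%) primed and 140 (9.43%) active enhancers. By accessibility class, 876 (59.0%) were closed, 562 (37.9%) moderate and 46 (3.1%) accessible on day 0.

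Accessibility was read by ATAC-seq, which marks exposed DNA through insertions of the Tn5 transposase, in 20 samples. KH2 mouse ES cells of C57BL/6 x 129/Sv origin with a doxycycline-inducible gata6 cassette were sampled untreated (day 0, 3 samples) and after doxycycline at 1 ug/mL for 8 h, 16 h, day 1, day 2 (3 samples each) and day 4 (2 samples). XEN cells, a line of extraembryonic endoderm (line X10, CD1, wild type, no doxycycline, no LIF), contributed 3 samples. Titles and treatment labels disagree on the time of exposure: the labels give 16 h for the 8 h group, 24 h for 16 h, 48 h for day 1 and 72 h for day 2. Times here follow the titles. The inducible cells derive from picked clones, which clone gave the ATAC-seq samples was not given in the sources used here, and XEN cells differ from the ES cells in strain and medium as well as in cell type, which cannot be told apart. Both cell types were grown on fibroblast feeders that were adsorbed before transposition, and in a bulk sample a change in the share of cells cannot be told apart from a change within cells. No transcripts were read, so cell identity was not checked against markers.

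GATA6 is a zinc finger TF that drives the primitive endoderm fate and binds GATA motifs, also within nucleosomes. Enhancers in ES cells are read from their histone marks: active ones carry H3K27ac, primed ones H3K4me1 without it, and poised ones a repressive mark in addition. AP-1 factors, which bind the palindrome-like letters TGANTCA, are known to hold enhancers open in many adherent cell types.

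The sequences of regions described below are shown as 101 bases from the mm10 (GRCm38) genome, centred on the authors' best match to the GATA6 matrix and read on the strand of that match, with the match in capitals. Zfyve21, Rab6b and Recql stand for regions that rose by day 4, Anks1b for a region that fell, Iqcm and Arhgap10 for regions that were higher in XEN cells, and Sar1b and Pawr for high matrix scores. Names are those of the nearest protein-coding start site and do not say which gene a region acts on. The GATA6 summit lies within the bases shown for Recql, Sar1b and Pawr. It lies outside them for Zfyve21, Rab6b, Anks1b, Iqcm and Arhgap10, so those matches need not be where GATA6 signal was highest.
Zfyve21 (chr12:111817340-111817440, minus strand): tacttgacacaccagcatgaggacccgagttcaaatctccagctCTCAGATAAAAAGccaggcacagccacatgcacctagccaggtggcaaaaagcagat
Rab6b (chr9:103142127-103142227, plus strand): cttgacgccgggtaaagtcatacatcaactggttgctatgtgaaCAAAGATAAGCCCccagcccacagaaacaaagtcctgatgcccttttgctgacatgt
Recql (chr6:142386346-142386446, plus strand): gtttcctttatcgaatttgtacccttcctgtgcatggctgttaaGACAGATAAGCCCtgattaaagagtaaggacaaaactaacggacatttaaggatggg
Anks1b (chr10:90810026-90810126, minus strand): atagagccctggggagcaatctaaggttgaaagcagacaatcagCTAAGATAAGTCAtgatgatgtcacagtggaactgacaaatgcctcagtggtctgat
Iqcm (chr8:75489259-75489359, minus strand): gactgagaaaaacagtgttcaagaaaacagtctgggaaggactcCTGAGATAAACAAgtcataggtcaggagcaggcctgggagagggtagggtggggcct
Arhgap10 (chr8:77407401-77407501, plus strand): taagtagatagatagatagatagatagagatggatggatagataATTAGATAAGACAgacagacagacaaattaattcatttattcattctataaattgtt
Sar1b (chr11:51775713-51775813, plus strand): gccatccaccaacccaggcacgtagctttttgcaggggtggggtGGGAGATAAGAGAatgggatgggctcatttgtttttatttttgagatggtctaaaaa
Pawr (chr10:108255897-108255997, minus strand): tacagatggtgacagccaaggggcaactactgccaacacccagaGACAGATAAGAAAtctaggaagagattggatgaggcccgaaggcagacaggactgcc

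The following regions held no match to the GATA6 matrix. Their sequence is centred on the GATA6 summit, the base of maximal GATA6 signal, on the plus strand, and the capitals mark the letters TGANTCA. Both regions fell between 8 h and day 4, and they are shown because they hold these letters. Other regions named below without a match held no TGANTCA in such a stretch. Of those, Pstpip1 fell and Plekhg3, Eif4g3 and Rmnd5a rose by day 4.
Ahdc1 (chr4:133071062-133071162, plus strand): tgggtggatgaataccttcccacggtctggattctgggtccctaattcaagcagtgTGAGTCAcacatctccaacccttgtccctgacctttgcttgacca
Rplp1 (chr9:61669841-61669941, plus strand): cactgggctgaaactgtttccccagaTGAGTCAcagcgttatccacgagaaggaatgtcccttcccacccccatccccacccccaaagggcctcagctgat

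The match of Zfyve21 scored 9.77, that of Rab6b 11.2, that of Recql 11.7, that of Anks1b 9.5, that of Iqcm 7.94, that of Sar1b 15.2 and that of Pawr 15.1. The order of these scores was not that of the accessibility changes given below. Over the 1178 best matches of 13 bases, position 5 (counted from the 5′ end of the match) was G in 99.2% and position 10 was G in 71.5%, and the 5 central bases were GATAA in 69.5%, GATTA in 6.71% and GATAG in 5.86%. Among all regions with such a match, GATAA was the core in 77.0%.

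The Late GATA6-only enhancers were poorer in GATA letters than the other regions. No match to the GATA6 matrix was listed for 284 of 1484 (19.1%), against 10.3% of all regions, 10.4% of Late GATA6-only regions in facultative heterochromatin (2493 regions), 6.32% of Late GATA6-only regions in unmarked chromatin (1171 regions) and 9.27% of Transient GATA6-only regions at enhancers (4488 regions). The median best score was 9.12 against 10.2 over all regions. Whole regions were scanned for the match, and their median width was 341 bases (quartiles 273 and 439.25) against 524 bases over all regions. The part of width in these shares was not tested. Within a fixed window of 201 bases around the summit, on both strands, the letters AGATAA were found in 43.5% of the Late GATA6-only enhancers, 54.3% of all regions, 57.6% of the heterochromatin set, 61.9% of the unmarked set and 56.3% of the Transient set. AGATAA lies within most matches to the GATA6 matrix, so that these measures overlap.

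Other letters varied as well. TGANTCA, the AP-1 letters, stood in the window of 15.4% of the Late GATA6-only enhancers, 10.7% of all regions and 6.71% of Transient GATA6-only enhancers, and in 14.1% of the heterochromatin set. ACAATG, letters bound by SOX factors, stood in 13.8% against 23.0% of all regions. In the heterochromatin, unmarked and Transient sets the shares were 20.3%, 24.5% and 9.98%. The enhancers were chosen without SOX17 and SOX2 binding, so their share against all regions is not independent of that choice. TGTTTAC, letters bound by forkhead factors, stood in 7.82% against 6.16% of all regions, and in 10.1%, 9.65% and 2.7% of these sets in the same order. GGAATG, bound by TEAD factors, stood in 16.5% against 18.8% of all regions, and CACGTG, an E-box, in 3.3% against 2.64%. These shares are descriptions of windows with no test.

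**Figure D1:**
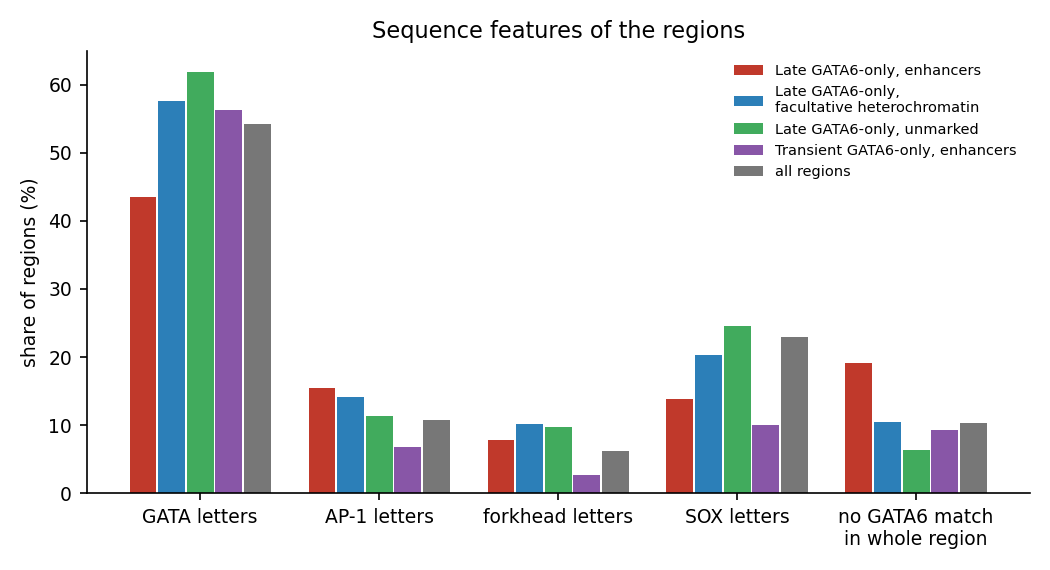
Share of regions (%) that hold each set of letters within 201 bases around the GATA6 summit, and share with no match to the GATA6 matrix in the whole region, for the 5 sets named in the legend. Late GATA6-only enhancers hold AGATAA in 43.5%, TGTTTAC in 7.82%, ACAATG in 13.8% and TGANTCA in 15.4%, and 19.1% have no GATA6 match.

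By position, 879 of the 1484 summits (59.2%) lay in introns, 428 (28.8%) between genes, 99 (6.67%) in promoter windows (1000 bases before to 100 bases after an annotated start), 36 (2.43%) in UTRs, 22 (1.48%) in noncoding exons and 20 (1.35%) in coding exons. Over all regions, introns held 45.6% and intergenic DNA 44.4%. The median distance to the nearest protein-coding start site was 17.6 kb, against 25.7 kb over all regions, 33.4 kb in the heterochromatin set, 44.8 kb in the unmarked set and 18.6 kb in the Transient set. The median GC content was 47.8% against 45.3%. The regions were spread over 1268 nearest genes, of which 1093 had 1 region, and the most regions at 1 gene were 5, at Magi1, which encodes a scaffold protein of cell junctions. Magi1 was singled out after its values were seen: its median deposited value was 0.0478 RPM on day 0, 0.0518 RPM on day 4 and 0.156 RPM in XEN cells. The log2 change of its 5 regions against day 0 ranged from -0.62 to 0.57 on day 4 and from 0.83 to 2.01 in XEN cells.

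The question of the time course was when these enhancers opened. The deposited values are averages per group in RPM, reads in the region scaled to the total reads of the library, and carry no spread. The median of the 1484 regions was 0.0542 RPM on day 0, 0.0581 RPM at 8 h, 0.0569 RPM at 16 h, 0.0687 RPM on day 1, 0.0928 RPM on day 2, 0.101 RPM on day 4 and 0.13 RPM in XEN cells. The values were low and near level until 16 h, and higher from day 1 on in each later group. All 42403 regions followed another course, with a median of 0.0777 RPM on day 0, 0.161 RPM on day 2, 0.129 RPM on day 4 and 0.121 RPM in XEN cells.

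The change of each region against day 0 was taken on the log2(RPM + 0.03) scale, which understates the change of low regions. Its median was 0.05 at 8 h, 0.06 at 16 h, 0.21 on day 1, 0.47 on day 2, 0.58 on day 4 and 0.86 in XEN cells. Over all regions the same medians were 0.03, 0.11, 0.31, 0.69, 0.52 and 0.40. Relative to all regions, the median change of the Late GATA6-only enhancers was -0.1 on day 1, -0.22 on day 2, 0.07 on day 4 and 0.46 in XEN cells. No region was more than 2-fold from day 0 at 16 h (0 higher, all regions 0.00236%, and 0 lower, all regions 0.00236%). More than 2-fold above day 0 were 14 of 1484 (0.943%, all regions 4.55%) on day 1, 321 (21.6%, all regions 36.8%) on day 2, 376 (25.3%, all regions 31.0%) on day 4 and 618 (41.6%, all regions 27.7%) in XEN cells. More than 2-fold below day 0 were 0 (all regions 0.00707%) on day 1, 3 (0.202%, all regions 1.41%) on day 2, 6 (0.404%, all regions 7.27%) on day 4 and 7 (0.472%, all regions 8.83%) in XEN cells. XEN was the highest of the 7 columns in 787 regions (53.0%, all regions 25.6%), day 2 in 360 (24.3%, all regions 39.4%) and day 4 in 268 (18.1%, all regions 14.5%).

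Reads of single libraries could be recovered from the averages at 24727 regions, for 16 libraries of all groups but day 0, so 8 h served as the baseline. Recovered reads covered 872 of the 1484 regions (58.8%), on 12 of the 20 chromosomes that hold them. The day 4 and XEN averages gave 2 libraries each, although 3 XEN samples are labelled, and the other groups gave 3. Libraries held 181 M to 288 M reads except for a XEN library of 43.3 M, in which the median region had 5 reads. Letters A, B and C name libraries in arbitrary order.

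The median of the 872 regions was 0.0332 to 0.0611 RPM in the 3 libraries at 8 h, 0.0366 to 0.0682 RPM at 16 h, 0.0574 to 0.0711 RPM on day 1, 0.0699 to 0.0905 RPM on day 2, 0.0955 and 0.0962 RPM in the 2 libraries on day 4, and 0.115 and 0.118 RPM in XEN cells. On the log2 scale the group means were -3.63 ± 0.30 (SD, n = 3) at 8 h, -3.16 ± 0.15 (n = 3) on day 2, -2.99 ± 0.01 (n = 2) on day 4 and -2.77 ± 0.02 (n = 2) in XEN cells. The 8 h and 16 h libraries overlapped, and the libraries of day 2, day 4 and XEN cells lay above all 8 h libraries without overlap. An SD of 0.01 or 0.02 is below the step that 1 read makes in these libraries and does not measure how close they are.

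The libraries also differed in their totals at all recovered regions, from 2650 to 4973 RPM at 8 h and from 6651 to 9505 RPM on day 2. Within a library, the median log2 value of the Late GATA6-only enhancers minus that of all regions is free of a common scaling of all regions, except through the added 0.03 RPM. It still varied with the total: on day 1 it was -0.48, -0.51 and -0.73 at totals of 4232, 4586 and 6937 RPM. The part of the totals in the values that follow was not tested. This difference was -0.50 to -0.38 at 8 h, -0.59 to -0.48 at 16 h, -0.73 to -0.48 on day 1, -0.77 to -0.73 on day 2, -0.33 and -0.31 on day 4, and 0.00 and 0.07 in XEN cells. The enhancers stood farther below all regions on day 2 than at 8 h, and nearer to them in XEN cells, without overlap between these groups. The day 4 values of -0.33 and -0.31 lay next to the -0.38 of an 8 h library. That gap is below the step that 1 read makes there, so day 4 cannot be told apart from 8 h by this measure. Against Transient GATA6-only enhancers the same difference went from between -0.91 and -0.65 at 8 h to 0.18 and 0.20 on day 4, and to 0.39 and 0.55 in XEN cells. Against the other Late GATA6-only sets it went the other way. It was 0.43 to 0.65 at 8 h for both sets. In XEN cells it was 0.25 and 0.30 for facultative heterochromatin, and 0.25 and 0.39 for unmarked chromatin.

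**Figure D2:**
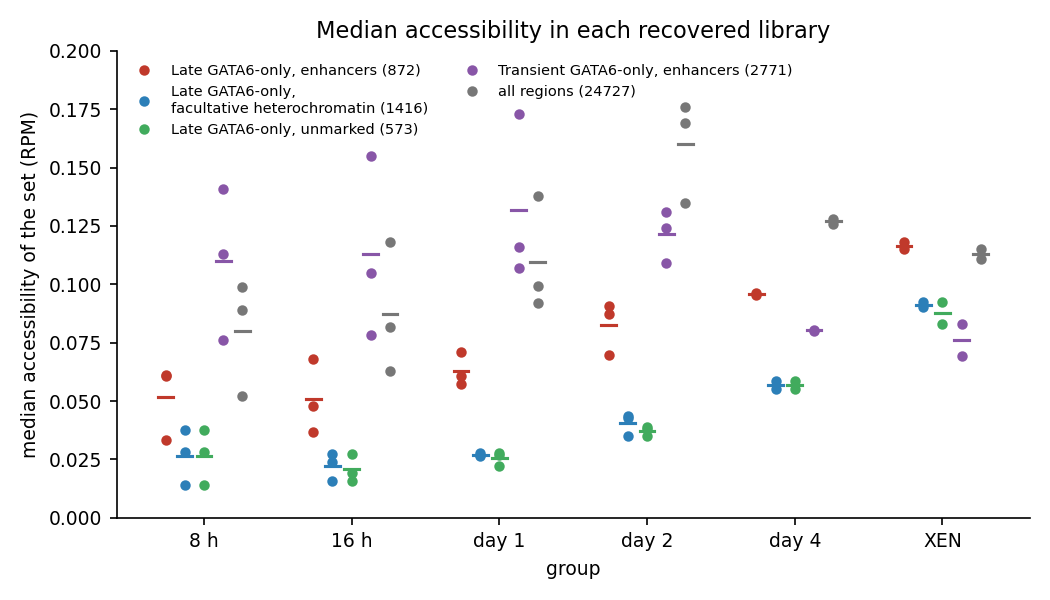
Median accessibility (RPM) of 5 sets of regions in each recovered library (points) with the mean of the group (bars), the number of regions in parentheses. Late GATA6-only enhancers lie between 0.0332 and 0.0611 RPM at 8 h and at 0.115 and 0.118 RPM in XEN cells, where Transient GATA6-only enhancers lie at 0.0693 and 0.0832 RPM.

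Single regions were tested with limma over all 24727 regions, and called at an adjusted p under 0.05 and more than 2-fold. At 16 h, 0 of 872 were higher (all regions 0.00404%) and 1, at Ahdc1, was lower (all regions 0.00404%), with 38 at an unadjusted p under 0.05. limma voom on the reads called the same counts, and with 1 library left out 0 to 2 regions were called. On day 1, 11 were higher (1.26%, all regions 5.36%) and 2 lower (0.229%, all regions 0.0162%), at Ahdc1 and Timp2. On day 2, 209 were higher (24.0%, all regions 38.0%) and 3 lower (0.344%, all regions 1.27%), at Ahdc1, Anks1b and Slc45a1. On day 4, 238 were higher (27.3%, all regions 31.7%) and 7 lower (0.803%, all regions 7.09%). In XEN cells against 8 h, 315 were higher (36.1%, all regions 23.4%) and 8 lower (0.917%, all regions 10.6%). The share that rose was thus below the background of all regions on day 1, day 2 and day 4 and above it in XEN cells, and the share that fell was below the background on day 2, on day 4 and in XEN cells. The comparisons share the 8 h libraries. When each library was centred on its median, the calls became 40 higher and 122 lower on day 2, 76 higher and 29 lower on day 4, and 142 higher and 28 lower in XEN cells. The day 1 counts rest on single libraries: 29 regions were higher without the 8 h library B, 1 without the 8 h library A, 3 without the day 1 library A, 1 without the day 1 library B, 6 without the day 2 library A, and 5 without the 16 h library B or either day 4 library. On day 2, 12 were lower without the 8 h library A. In XEN cells, 28 were lower without the XEN library B and 1 without A. Timp2 and Slc45a1 were named after their values were seen.

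Between day 2 and day 4, 25 of 872 were higher on day 4 (2.87%, all regions 2.07%) and 14 lower (1.61%, all regions 8.47%). The median change was 0.11 on the log2 scale, against -0.25 over all regions. With centred libraries the calls were 99 higher and 4 lower. The counts rest on few libraries: without the day 4 library B 0 regions were called, without A 2 were higher and 1 lower, without the day 2 library A 13 were higher and 5 lower, and without B 11 were higher and 1 lower.

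XEN cells were compared with day 4 to ask where the induced cells and the endoderm line differ. In XEN cells 97 of 872 were higher than on day 4 (11.1%, all regions 4.89%) and 66 lower (7.57%, all regions 14.8%), with a median change of 0.12 against -0.25. Without the XEN library of 43.3 M reads (library A), 68 were higher and 12 lower, and without XEN library B 72 were higher and 78 lower, so that the larger of the counts changed with the XEN library. Without the day 4 library A 52 were higher and 20 lower, and without B 48 were higher and 25 lower. By chromosome, the median XEN change of the Late GATA6-only enhancers against day 0 ranged from 0.58 on chromosome 15 to 1.3 on chromosome 16, and that of all regions from 0.16 on chromosome 11 to 0.82 on chromosome 16, while on day 4 that of the enhancers ranged from 0.38 to 0.78. Whether chromosome copies or strain differ in XEN cells was not tested.

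**Figure D3:**
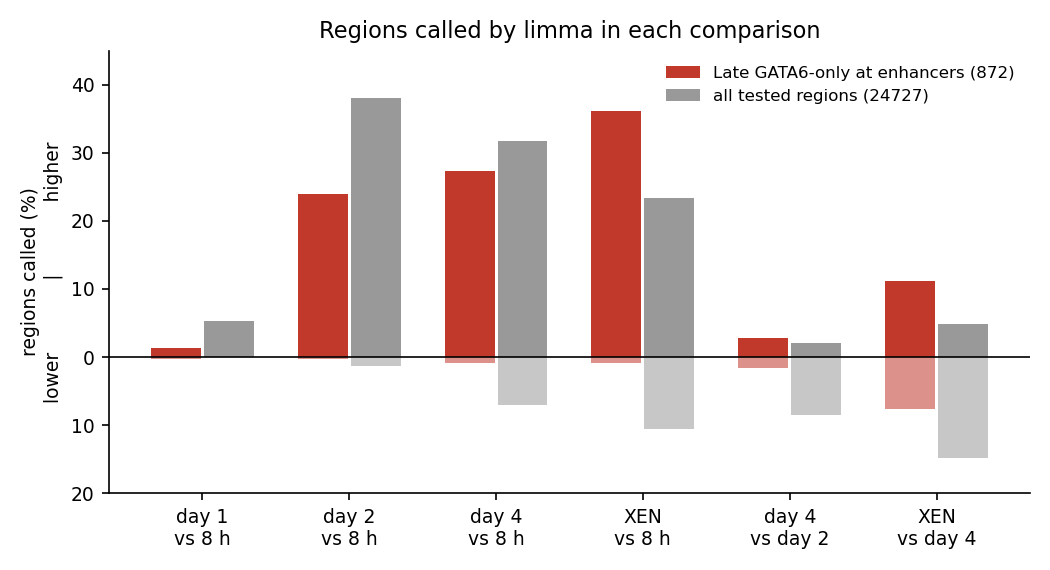
Share of regions (%) called higher (upwards) or lower (downwards, paler) by limma in 6 comparisons, for the 872 Late GATA6-only enhancers with recovered reads and for all 24727 regions. The enhancers reach 36.1% higher in XEN cells against 8 h, where all regions reach 23.4%.

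Other Late GATA6-only regions served as the closest comparison. On day 4, 25.1% of 1416 tested regions in facultative heterochromatin and 24.1% of 573 in unmarked chromatin were called higher than at 8 h. In XEN cells against 8 h these shares were 53.5% and 53.2%, above the 36.1% of the enhancers. In XEN cells against day 4, 23.5% and 23.4% were higher and 5.16% and 4.01% lower, where the enhancers had 11.1% and 7.57%. Both sets started lower, at a median deposited value of 0.0267 and 0.0254 RPM on day 0 against 0.0542 RPM. Transient GATA6-only enhancers, which share the mark classes, went the other way: 89 of 2771 (3.21%) were higher and 367 (13.2%) lower on day 4, and 27 (0.974%) higher and 439 (15.8%) lower in XEN cells.

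Among the Late GATA6-only enhancers, the medians differed with the accessibility class on day 0. The accessibility class was set on day 0 data and is not independent of changes against day 0, so the 8 h libraries were used. In regions closed on day 0 (518 tested) the median log2 change against 8 h was 0.38 on day 2, 0.6 on day 4 and 0.87 in XEN cells, and 43.2% were called higher in XEN cells (all closed regions 35.2%). In moderate regions (326 tested) it was 0.56, 0.6 and 0.6, and 27.9% were called higher in XEN cells (all moderate regions 6.78%). In accessible regions (28 tested) it was 0.82, 0.36 and -0.25: 11 (39.3%, all accessible regions 31.0%) were called higher on day 2. On day 4, 1 was higher, at Rmnd5a (3.57%, all accessible regions 11.7%), and 2 were lower, at A830018L16Rik and Pstpip1 (7.14%, all accessible regions 32.5%). In XEN cells 0 were higher (all accessible regions 0.758%) and 3 lower (10.7%, all accessible regions 49.4%) by limma, at A830018L16Rik, Epgn and Rbms2, with 4 at an unadjusted p under 0.05. Over all tested regions the medians on day 4 were 0.77 for closed, 0.08 for moderate and -0.15 for accessible regions.

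The mark classes and accessibility classes were linked: 78.6% of primed, 54.0% of poised and 14 of 140 active enhancers were closed. Active enhancers had a median of 0.126 RPM on day 0, against 0.0486 RPM for primed and 0.0537 RPM for poised ones. Of 89 active enhancers tested, 33 (37.1%, all active enhancers 26.4%) were higher on day 2, 16 of 89 (all active enhancers 10.8%) on day 4 and 9 (10.1%, all active enhancers 3.03%) in XEN cells. Lower were 3 (3.37%, all active enhancers 26.6%) on day 4, at A830018L16Rik, Rplp1 and another region of Pstpip1, and 6 (6.74%, all active enhancers 39.0%) in XEN cells. Of 300 primed enhancers, 56 (18.7%) were higher on day 2, 84 (28.0%) on day 4 and 121 (40.3%) in XEN cells, where all primed enhancers had 36.9%, 28.4% and 16.1%. Of 483 poised enhancers, 120 (24.8%), 138 (28.6%) and 185 (38.3%) were higher, where all poised enhancers had 35.5%, 25.5% and 14.9%. The day 4 shares of primed and poised enhancers were thus near the background of their class.

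**Figure D4:**
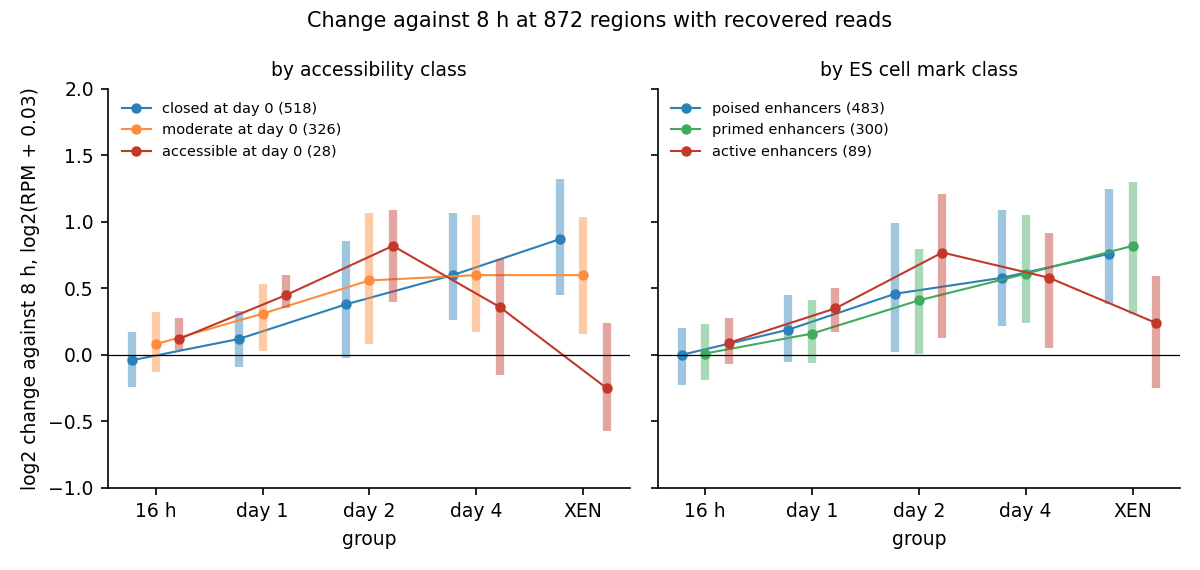
Median (points) and quartiles (bars) of the limma log2 change against 8 h at the 872 regions with recovered reads, split by accessibility class on day 0 (left) and ES cell mark class (right), with the number of regions in parentheses. Accessible regions reach 0.82 on day 2 and lie at -0.25 in XEN cells, closed regions reach 0.87 in XEN cells.

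Regions with and without AP-1 letters were counted apart, and the differences between their shares were not tested. Of 145 tested regions with TGANTCA, 12 (8.28%) were higher on day 2 and 26 (17.9%) on day 4 than at 8 h, against 197 (27.1%) and 212 (29.2%) of 727 without these letters. Over all tested regions with TGANTCA the shares were 30.6% and 30.7%. Lower on day 4 than at 8 h were 3 of the 145 (2.07%, all regions with these letters 7.43%) and 4 of the 727 (0.55%, all regions without them 7.05%). Between day 4 and XEN cells, 33 of 145 (22.8%) were higher in XEN cells and 2 lower, against 64 higher and 64 lower of 727, and the medians were 0.55 and 0.04. For all tested regions with these letters, 8.98% were higher and 12.2% lower. Without the day 4 library A the 145 regions gave 18 higher and 1 lower, and without B 14 higher.

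Of regions with no match to the GATA6 matrix, 35 of 156 (22.4%) were higher on day 4, against 203 of 716 (28.4%) with a match, and in XEN cells against 8 h the shares were 44.2% and 34.4%. Of all tested regions without a match, 750 of 2497 were higher on day 4 and 527 (21.1%) in XEN cells. These groups of letters overlap, and the differences between the shares were not tested. The authors' class of regions where GATA6 binding rose on Oct4 knockdown held 90 of the 1484 regions (6.06%, all regions 8.57%), and 4 (0.27%, all regions 6.25%) were in the class where it fell. This second class held 0.682% of the heterochromatin set, 0.512% of the unmarked set and 2.79% of the Transient set. The paper reports that its sites were enriched for PTF binding. The regions here were chosen without PTF binding, so their low share is not independent of that choice. Of 57 tested regions of the first class 30 (52.6%) were higher on day 4, against 25.2% of 812 in the unchanged class and 73.9% of all tested regions in the first class. Of the 99 promoter regions 54 were tested, and 19 (35.2%, all promoter regions 29.6%) were higher on day 4.

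The 8 regions with the largest rise on day 4 lay mostly in introns. The intronic region chr12:76537450-76537733 of Plekhg3 had 0.0237, 0.0752 and 0.0797 RPM at 8 h, 0.997, 0.953 and 0.612 RPM on day 2, 0.764 and 0.618 RPM on day 4, and 0.0693 and 0.0485 RPM in XEN cells. All day 2 and day 4 libraries lay above the 8 h libraries, and both XEN libraries within their range. The log2 change was 3.07 ± 0.40 (SE) on day 4 (limma, adjusted p = 1.4e-12), and -3.02 between day 4 and XEN cells (adjusted p = 2.18e-09), the most negative in that comparison too. No GATA6 match was listed for it.

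The region chr12:111816907-111817536 in an intron of Zfyve21, which encodes a FYVE domain protein, had 0.057, 0.122 and 0.197 RPM at 8 h, 1.41, 1.79 and 0.883 RPM on day 2, 1.32 and 1.02 RPM on day 4, and 0.485 and 0.635 RPM in XEN cells. It was high in every library from day 2 on and differed from 8 h by 3.04 on day 4 and by 2.02 in XEN cells (limma, adjusted p = 5.48e-12 and 6.92e-06).

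The region chr9:103141142-103142837 in Rab6b, which encodes a Rab GTPase of the Golgi, rose later. It had 0.0665, 0.108 and 0.202 RPM at 8 h, 0.257, 0.41 and 0.262 RPM on day 2, 0.802 and 0.754 RPM on day 4, and 0.462 and 0.687 RPM in XEN cells. The day 4 libraries lay above all others, and the log2 change from 8 h was 1.19 on day 2, 2.47 on day 4 and 2.03 in XEN cells (limma, adjusted p = 0.00253, 1.47e-08 and 5.01e-06). The region chr6:142386263-142386614, 595 bases inside Recql, which encodes a DNA helicase, and within the promoter window of an annotated start, had 0.00949, 0.047 and 0.0188 RPM at 8 h, 0.246 and 0.256 RPM on day 4, and 0.185 and 0.125 RPM in XEN cells. Its log2 change on day 4 was 2.41 ± 0.38 (limma, adjusted p = 1.07e-08).

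The other 4 regions of this group were nearest to Ipo11 (a nuclear importin), Ank3 (ankyrin-G), Wwox and Mdm4 (a regulator of p53), with log2 changes of 2.40, 2.39, 2.38 and 2.29 on day 4 and SEs of 0.38 to 0.40. All 4 were lower in XEN cells than on day 4, by -1.82, -1.22, -1.49 and -1.24 (limma, adjusted p = 0.000658, 0.0237, 0.00573 and 0.0232). Of the 8 regions, all had their day 4 libraries above their 8 h libraries.

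Regions that fell by day 4 were few, 7 of 872. The intronic region chr1:11467103-11467523 of A830018L16Rik, an active enhancer in the accessible class, had 0.223, 0.508 and 0.3 RPM at 8 h, 0.373, 0.381 and 0.253 RPM on day 2, 0.112 and 0.0703 RPM on day 4, and 0.0923 and 0.0381 RPM in XEN cells. It kept the level of 8 h on day 2 and lay below it in all later libraries, with a log2 change of -1.57 ± 0.40 on day 4 and -1.96 in XEN cells (limma, adjusted p = 0.000408 and 1.07e-05). The region chr10:90809865-90810128 of Anks1b, a poised enhancer with the letters AGATAA in its match, had 0.076, 0.155 and 0.0797 RPM at 8 h, 0.016 and 0.0151 RPM on day 4, and 0 and 0.0381 RPM in XEN cells. It fell by 1.5 on the log2 scale on day 4 (limma, adjusted p = 0.000188).

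The region chr4:133070863-133071316 of Ahdc1 fell between 8 h and 16 h and was high again in XEN cells. Ahdc1 encodes an AT-hook protein, and the sequence of the region with TGAGTCA is given above. The deposited averages of the region were 0.203 RPM on day 0, 0.387 RPM at 8 h and 0.112 RPM on day 4, so its fall from 8 h was larger than from day 0. It had 0.228, 0.602 and 0.319 RPM at 8 h, 0.0261, 0.139 and 0.168 RPM at 16 h, 0.0533, 0.0905 and 0.0961 RPM on day 2, 0.134 and 0.0804 RPM on day 4, and 0.346 and 0.375 RPM in XEN cells. All libraries from 16 h to day 4 lay below those of 8 h, and the log2 change was -1.52 on day 4 (limma, adjusted p = 0.000586) and 1.54 between day 4 and XEN cells (adjusted p = 0.00457). At Pstpip1, a cytoskeletal adaptor gene, the change was -1.31 on day 4 and 1.31 between day 4 and XEN cells (limma, adjusted p = 0.00329 and 0.0184). At Rplp1, 244651 bases from the start of this ribosomal protein gene, it was -1.31 and 0.05 (limma, adjusted p = 0.00203 and 0.945).

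**Figure D5:**
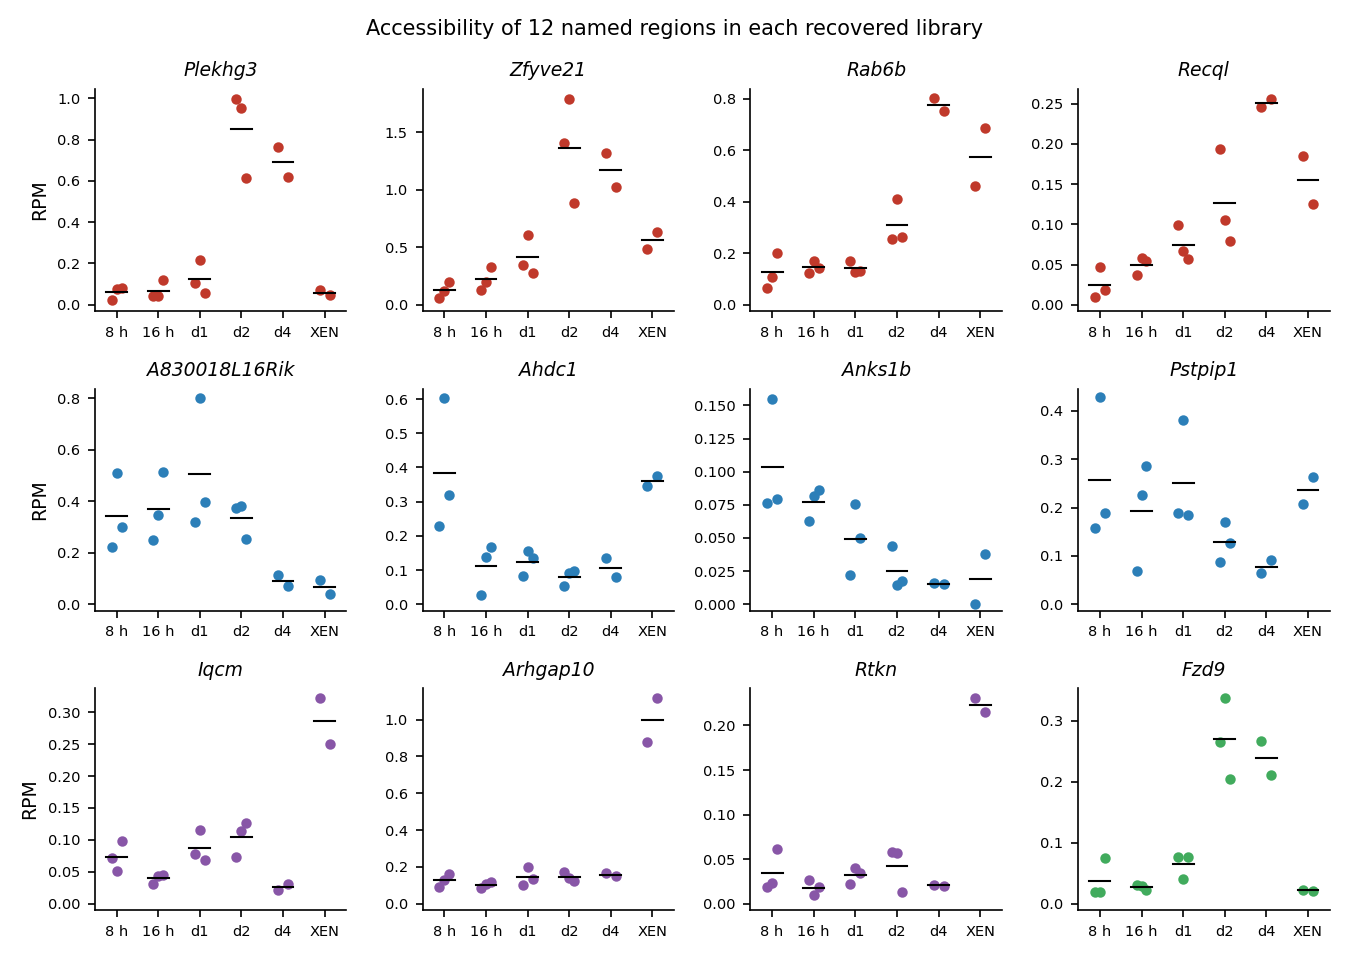
Accessibility (RPM) of 12 regions, named by their nearest gene, in each recovered library (points) with the mean of the group (bars). The top row shows 4 regions of the largest rise on day 4, the middle row 4 that fell, and the bottom row 3 that were higher and 1 that was lower in XEN cells than on day 4.

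Some regions had not risen by day 4 and were higher in XEN cells. The region chr8:77406521-77407664 of Arhgap10 had 0.0902, 0.127 and 0.164 RPM at 8 h, 0.166 and 0.151 RPM on day 4, and 0.877 and 1.12 RPM in XEN cells. The day 4 libraries overlapped those of 8 h, and the log2 change between day 4 and XEN cells was 2.44 (limma, adjusted p = 2.18e-06). At Iqcm (chr8:75489227-75489494) the libraries had 0.0214 and 0.0301 RPM on day 4 and 0.323 and 0.25 RPM in XEN cells, and at Rtkn (chr6:83131778-83132094) 0.0214 and 0.0201 RPM, and 0.231 and 0.215 RPM. Their changes between day 4 and XEN cells were 2.50 and 2.32 (limma, adjusted p = 5.2e-07 and 6.42e-07). Between 8 h and XEN cells they were 1.62 and 2.03 (limma, adjusted p = 0.000172 and 3.39e-07). The Iqcm region, of the moderate class on day 0, was also lower on day 4 than on day 2, by -1.25 (limma, adjusted p = 0.019).

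Others rose after induction and lay near their 8 h level in XEN cells. The region chr5:135222931-135223313, in a coding exon of Baz1b and nearest to the start of Fzd9, a Wnt receptor gene, had 0.019, 0.0188 and 0.075 RPM at 8 h, 0.266, 0.338 and 0.205 RPM on day 2, 0.267 and 0.211 RPM on day 4, and 0.0231 and 0.0208 RPM in XEN cells. It changed by 2.09 on day 4 against 8 h and by -2.37 between day 4 and XEN cells (limma, adjusted p = 6.39e-07 and 1.95e-06). At Eif4g3, a translation initiation factor gene, these changes were 2.02 and -2.06 (limma, adjusted p = 4.09e-06 and 9.97e-05). The Eif4g3 region was of the moderate class on day 0. XEN cells differed from 8 h by -0.28 at Fzd9 and -0.04 at Eif4g3 (limma, adjusted p = 0.593 and 0.952).

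Among regions with recovered reads, the 4 most accessible on day 0 were at promoters or an exon. They lay at Rmnd5a (0.897 RPM), which encodes a ubiquitin ligase subunit, Ubald2 (0.875 RPM), Arhgap35 (0.851 RPM) and Pycard (0.661 RPM), which encodes an inflammasome adaptor. These levels are reads per region without division by width. On day 4 Rmnd5a was higher by 1.18 (limma, adjusted p = 0.0116), and the other 3 had changes of 0.73, 0.54 and 0.41 that did not pass (adjusted p = 0.132, 0.281 and 0.422). In XEN cells against day 4, Ubald2 and Pycard were lower by -1.44 and -1.42 (limma, adjusted p = 0.011 and 0.0122).

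Of the 4 tested regions with the highest scores of the GATA6 match, only that at Pawr was called on day 4, as higher. Their changes on day 4 were -0.65 at Sar1b (score 15.2, limma, adjusted p = 0.129), 1.21 at Pawr (15.1, adjusted p = 0.00548), -0.18 at Fam221a (15.0, adjusted p = 0.714) and 0.3 at Trpm1 (15.0, adjusted p = 0.543). At Sar1b, a gene of the secretory pathway, the libraries had 0.0142, 0.0987 and 0.0422 RPM at 8 h and 0.0107 and 0.0251 RPM on day 4, and overlapped. At Pawr, an apoptosis regulator gene, they had 0.0522, 0.0846 and 0.0656 RPM at 8 h and 0.219 and 0.171 RPM on day 4 without overlap, and 0.0462 and 0.142 RPM in XEN cells.

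Of all 42403 GATA6 regions, 337 were nearest to the primitive endoderm genes examined and 313 to the pluripotency genes. Of 40 primitive endoderm genes, 7 (Apoa1, Lama1, Lamc1, Lrp2, Nid2, P4ha2 and Ttr) had 9 of the Late GATA6-only enhancers. Of these 9 regions 5 were tested, and 2 were higher and 0 lower on day 4 (limma, adjusted over all regions, 3 at an unadjusted p under 0.05, all regions 31.7% and 7.09%). The median change of the 5 was 0.8 against 0.52 over all regions. At P4ha2, which encodes a collagen prolyl hydroxylase subunit, the region had 0.0427, 0.0564 and 0.0844 RPM at 8 h, 0.326 and 0.256 RPM on day 4, and 0.115 and 0.198 RPM in XEN cells, a log2 change of 1.83 on day 4 (limma, adjusted p = 2.64e-05). Of 3 tested regions at Lamc1, a laminin chain gene, 1 was called on day 4 (1.09, adjusted p = 0.0147), and the others had changes of 0.8 and 0.26 (adjusted p = 0.0758 and 0.612). Of 33 pluripotency genes 1, Klf5, was nearest to 1 region, which was not tested.

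Of 30 signalling genes 9 had 12 regions, of which 10 were tested: 1 was higher and 0 lower on day 4 (limma, 3 at an unadjusted p under 0.05, all regions 31.7% and 7.09%), with a median change of 0.58. This was at Smad3, a transducer of TGF-beta signals, where the libraries had 0, 0.0235 and 0.0328 RPM at 8 h, 0.0802 and 0.0754 RPM on day 4, and 0.0923 and 0.0694 RPM in XEN cells (change on day 4 1.21, limma, adjusted p = 0.00302). Of 28 adhesion and cytoskeleton genes 10 had 16 regions. Of the 9 tested, 0 were higher or lower on day 4 (limma, 1 at an unadjusted p under 0.05, all regions 31.7% and 7.09%), with a median of 0.29. In XEN cells 4 of the 9 were higher than at 8 h, where the share was 36.1% of the 872 Late GATA6-only enhancers and 23.4% of all regions. Of these 4 regions, 2 were at Cald1, which encodes caldesmon (1.06 and 1.66, limma, adjusted p = 0.00602 and 0.000188), 1 at Pard3, a polarity gene (1.08, adjusted p = 0.0112) and 1 at Tns3, a focal adhesion gene (1.01, adjusted p = 0.0213). The regions at Cald1 and Tns3 were named after their values were seen. Tested regions at Actn4, Hspg2 and Actn1 had XEN changes of -0.0, 0.48 and 0.44 and were not called. In XEN cells against 8 h, 1 of the 5 tested primitive endoderm regions and 2 of the 10 tested signalling regions were higher. Of 25 genes of endocytosis and lipid handling, Abca1, a cholesterol exporter gene, had 1 region, which changed by 0.76 on day 4 (limma, adjusted p = 0.0636) and rose by 1.45 in XEN cells (adjusted p = 0.000263). Of all 42403 regions, 303 were nearest to the signalling genes, 228 to the adhesion and cytoskeleton genes and 73 to those of endocytosis and lipid handling.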

How the data were processed

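Sample titles gave the groups. Reads were trimmed (cutadapt), mapped to mm10 (Bowtie2), filtered for duplicates and mapping quality (SAMtools) and corrected for the Tn5 offset by the authors, who then counted fragments under 100 bases per GATA6 peak (bamsignals). Accessibility was deposited as RPM, which the authors scaled to library size, left undivided by width and averaged per group. The low values show 1 read added per region and library. The deposited table held 42403 regions and 7 such columns. Another 52 columns with values of single ChIP-seq or ENCODE samples were left out. The authors' deposited motif score per region (FIMO matches) was used as a description, as were the deposited categories, which have no unit. The authors used DESeq2 for the class of Oct4 knockdown.

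Where all columns kept at least 13 significant digits (24753 regions), the averages were decomposed into whole reads of single libraries, which succeeded for 24727 regions, 16 libraries and all groups but day 0. The added read was removed. The procedure was checked on simulated data. The letters of libraries are tied to no sample. Tests used limma 3.58.1 (R 4.3.3) with trend on log2(RPM + 0.03), all libraries in 1 fit, Benjamini-Hochberg over all 24727 regions, and calls at an adjusted p under 0.05 and an absolute log2 change above 1. The averaged columns, which have no spread, were described without a test. Counts were also simulated at the 8 h means of the regions, with an assumed spread and scaled by library size only. On these data, the comparison of day 4 with 8 h over 24727 regions called 88% of regions raised 4-fold, 44% of those lowered 4-fold, 100% of those raised 8-fold and 60% of those lowered 8-fold, with 7 false calls. The simulation held no differences in total signal between libraries, and its changed regions were drawn from all regions. These shares thus need not hold for the Late GATA6-only enhancers. Regions were placed with GENCODE M21 (GRCm38) by their GATA6 summit, and sequences were read from the GRCm38.p6 reference, whose chromosomes are those of mm10. Region bounds are as deposited. Per the methods of the study, libraries came from independent cultures.

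Named regions were, over members with recovered reads, the 8 with the largest and the 5 with the most negative called change at day 4 against 8 h, the 4 with the highest value at day 0, the 3 largest and 3 most negative called changes of XEN cells against day 4, and the 4 with the highest GATA6 score. Of gene lists, at most 4 regions were named, those with the largest absolute change on day 4. Regions at Cald1 and Tns3 were named in addition. The regions and lists were chosen with earlier results of these data known. Alternatives were 2 other pseudocounts, a filter at 10 reads, median centring, quantile normalisation, limma voom, 8 h and 16 h together as baseline, and each library left out.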

Additional observations from a re-analysis of the deposited data

How the results depend on the processing

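No paired analysis was possible because the recovered libraries carry no replicate number. Reads per region set the precision: the median region had 7 to 13 reads per library at 8 h and 5 in the smaller XEN library, and on simulated data falls were called less often than rises.

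Of 615 alternative values for 27 named results, 593 kept direction and side of the threshold, 20 lost the call, 2 gained it and 0 reversed. For counts of called regions, the pseudocount of 0.15 RPM gave 1 region on day 1, 61 on day 2, 44 on day 4, 54 in XEN cells against 8 h, 2 between day 2 and day 4, and 37 between XEN cells and day 4, and a filter or voom left counts within 1.5 times except 102 between XEN cells and day 4 with voom. A pseudocount of 0.006 RPM gave 0 at 16 h and 19 between day 2 and day 4. Centred libraries gave 3 at 16 h, 7 on day 1, 105 on day 4, 170 in XEN cells against 8 h and 103 between day 2 and day 4. Quantile normalisation gave 8 at 16 h, 80 on day 2 (41 higher and 39 lower) and 105 on day 4. The joint baseline of 8 h and 16 h gave 4 on day 1. With 1 library left out, counts ranged from 0 to 2 at 16 h, 2 to 30 on day 1, 169 to 260 on day 2, 181 to 292 on day 4, 251 to 355 in XEN cells against 8 h, 0 to 50 between day 2 and day 4 (18 without the day 2 library A, 12 without B), and 72 to 184 between XEN cells and day 4 (73 without the day 4 library B).

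The median region change against day 0 reversed with centred columns at 16 h (-0.10), day 1 (-0.18) and day 2 (-0.36), and with quantile normalisation at 16 h (-0.05), day 1 (-0.09) and day 2 (-0.13). On day 4 these gave 0.02 and 0.10, and in XEN cells 0.37 and 0.44. The pseudocount of 0.15 RPM gave 0.09 on day 1, 0.21 on day 2, 0.27 on day 4 and 0.40 in XEN cells, and 0.006 RPM gave 0.63 on day 2, 0.77 on day 4 and 1.13 in XEN cells. On day 4, members with a mean of at least 0.05 RPM gave 0.66, those with recovered reads 0.60, and subtracting the lowest value 0.62, which in XEN cells gave 0.82. The cause of these shifts was not tested.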
